A study of Mus musculus and Homo sapiens with 22 samples.

Results

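N6-methyladenosine (m6A) was mapped in HEK293T cells, a line derived from human embryonic kidney, and 881 of the predicted sites lay in introns of protein-coding genes. They were chosen by position alone: the modified A had to sit in the motif DRACH (D is A, G or T, R is A or G, H is A, C or T), in an intron of the longest coding transcript of its gene on the same strand, and in no exon of the longest transcript of another coding gene. These 881 sites were 2.70% of the 32639 DRACH sites (95% Wilson interval 2.53 to 2.88) and came from a list of 36556 sites over all motifs. A further 29712 DRACH sites (91.0%) lay in exons of the longest coding transcripts, and the other 2046 lay in neither. The sites were then split: 684 (77.6%, 74.8 to 80.3) fell in an exon of some other annotated transcript. The other 197 (22.4%, 19.7 to 25.2) fell in no annotated exon at all. The share of all DRACH motifs of these introns that lie in such exons is not given. The split, and the shares by kind of exon below, therefore describe the list without a background.

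The study measured m6A by miCLIP2, in which an antibody to m6A is crosslinked to fragmented poly(A)+ RNA and the crosslink is read as a stop of reverse transcription. The labels give no treatment of the HEK293T cells. Their 4 replicate libraries, which the paper calls biological replicates, were merged by the authors into 1 list of sites. The labels do not say whether they came from separate cultures. Each site carries a score of at least 0.5 given by m6Aboost, a classifier trained on wild-type and Mettl3 knockout mouse embryonic stem cells (mESC). A list from wild-type mESC, made in the same way, is used here for comparison. Because there is 1 list per cell type, no value has a spread over replicates and no test was run. The intervals cover counting error only, treat sites as independent and are therefore too narrow for sites that lie close together. Read depth at a site is unknown, and the lists hold no expression values, so the cell identity could not be checked against markers.

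m6A is placed on nascent RNA by a nuclear complex whose catalytic core is METTL3 and METTL14 and which needs WTAP to reach its targets. Introns are normally removed while the RNA is made, so an intron appears in poly(A)+ RNA when it is retained, when the transcript ends inside it at an intronic polyadenylation site, or when it holds an exon that only some isoforms use. In the annotation, an exon can span a whole intron, and a last exon can run on past a 5′ splice site or start inside the intron. Transcripts labelled as retained introns may be incomplete, so a last or first exon of such a transcript need not mark an end or a start of the RNA.

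The sequences below are those of the highest-scoring site in each of the 10 introns with most sites among introns of 1 coding gene, shown because the accounts of single genes turn on them. Each is 21 nt of hg38, written 5′ to 3′ on the strand of the gene, with the DRACH pentamer in capitals and the modified A at its centre.
CSNK1D intron 3, chr17:82254401-82254421, minus strand: ggctcagcTGACTggcttctc
SPPL2B intron 8, chr19:2342175-2342195, plus strand: cggggaggGGACTctggggct
LRRC61 intron 2, chr7:150332310-150332330, plus strand: tagcctaaGGACTcctggtca
CCDC57 intron 15, chr17:82153029-82153049, minus strand: gcgagtctGGACTcgggctca
CEP72 intron 9, chr5:640927-640947, plus strand: agggcctcGAACTggggaaaa
ACIN1 intron 9, chr14:23068385-23068405, minus strand: aaaggggtGGACTtgcatcat
CEP89 intron 1, chr19:32969715-32969735, minus strand: ggagccagGGACAagtgggag
C21orf58 intron 1, chr21:46322568-46322588, minus strand: gtttgagcAAACTctgggcag
PIGG intron 8, chr4:522572-522592, plus strand: tggcagcaGGACTgttgggcc
WTAP intron 6, chr6:159748881-159748901, plus strand: aagactgtGGACTtcatgatt

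Sites among the highest-scoring of each class, 1 per gene, show motifs that the classifier rated well. Among sites in another annotated exon, a WDR27 site scored 0.976, above COPB2, ANKRD11 and CENPV, but its window is not printed. WTAP (0.979, above) stood beside these windows.
MRPL43 intron 3, score 0.981, chr10:100986688-100986708, minus strand: caggctttGGACTgttactcc
COPB2 intron 21, score 0.974, chr3:139357770-139357790, minus strand: agtgctttGGACTatgagaaa
ANKRD11 intron 7, score 0.970, chr16:89286988-89287008, minus strand: acacataaGAACTctgtactg
CENPV intron 2, score 0.960, chr17:16349182-16349202, minus strand: ctaaattaGAACTttttcaaa

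Among sites in no other annotated exon, CEP72 (0.926, above) stood beside these windows.
CHKB intron 4, score 0.960, chr22:50581228-50581248, minus strand: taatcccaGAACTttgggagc
SRP9 intron 3, score 0.926, chr1:225788628-225788648, plus strand: ctggtttcGAACTgctgacct
CES2 intron 10, score 0.923, chr16:66943192-66943212, plus strand: gagaagcaGGACTggggaccg
FBXL14 intron 1, score 0.904, chr12:1592607-1592627, minus strand: ggagagatGGACTctgctgct
The CHKB and SRP9 windows were not unique: the same 21 nt occurred at 80 and 27 places of hg38, whereas the CES2, FBXL14, MRPL43, COPB2, ANKRD11 and CENPV windows each occurred at 1 place. CHKB encodes choline kinase beta and SRP9 a subunit of the signal recognition particle.

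Last exons were the most frequent place of intronic sites in other transcripts. Of the 684 sites in another exon, 244 (35.7%, 32.2 to 39.3) lay in a last exon that starts inside the intron and 112 (16.4%, 13.8 to 19.3) in a last exon that runs on from the exon before it, together 356 sites (52.0%, 48.3 to 55.8). For 260 of these 356 (73.0%, 68.2 to 77.4) the last exon belonged to a coding transcript of the host gene, for 39 (11.0%) to retained-intron transcripts only and for 57 (16.0%) to other types. A further 155 sites (22.7%, 19.7 to 25.9) lay in an exon that covers the whole intron, 125 of them in a retained-intron transcript. First exons held 82 sites, internal exons 30, transcripts of a single exon 6, and exons of another, noncoding or overlapping, gene alone 55. Where a site had several such exons it was counted once, under the first that applied in the order: whole intron, last exon starting inside, last exon running on, single exon, internal, first.

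**Figure D1:**
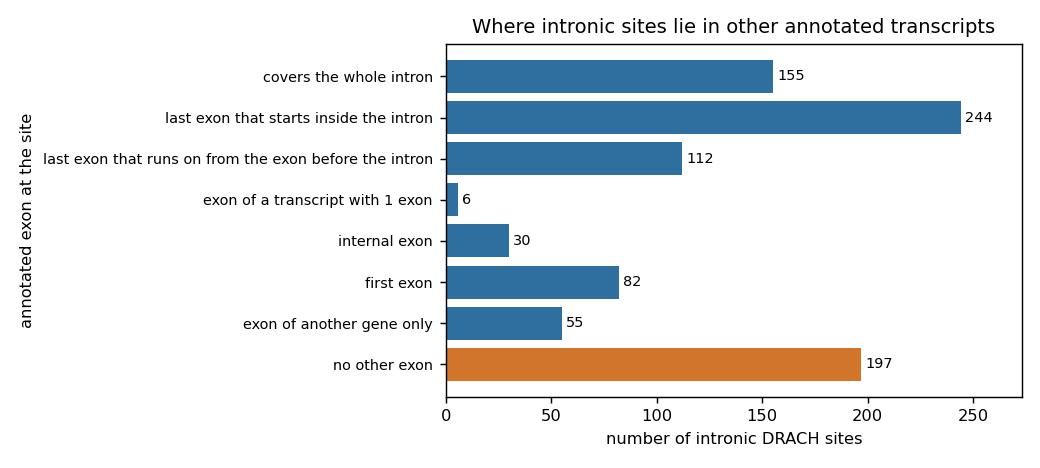
Number of intronic DRACH sites of the HEK293T list by the annotated exon that holds them (bars; blue, another annotated exon; orange, none). Last exons that start inside the intron form the longest bar with 244 sites, followed by the 197 sites in no other exon and the 155 sites in exons that cover the intron.

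By type of transcript, 389 of the 684 sites (56.9%, 53.1 to 60.5) lay in an exon of another coding transcript of the host gene, 282 (41.2%) in a retained-intron transcript, 191 (27.9%) in a transcript tagged for nonsense-mediated decay and 146 (21.3%) in a transcript without a defined coding sequence. A site can count in several of these. Only retained-intron transcripts held 122 sites (17.8%, 15.1 to 20.9). In the 389 sites of other coding transcripts, the 3′ UTR was the usual place: 264 (67.9%, 63.1 to 72.3) lay in the 3′ UTR of such a transcript, 97 (24.9%) in its coding sequence and 54 (13.9%) in its 5′ UTR. Overlap with such regions is an input of m6Aboost, so the shares by region are partly set by the prediction. The share in another exon depended on how much annotation was used. It fell from 77.6% to 47.2% when only transcripts of the basic set were counted.

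Exons that cover the intron hosted sites in 88 genes. The genes named in this paragraph and the next were taken after their values were seen, as those with most sites of their kind. DDX5, a DEAD-box RNA helicase, had 6 sites in intron 12 (1236 nt), with scores from 0.506 to 0.920. Its paralog DDX17 had 5 in intron 11 (0.581 to 0.95), and WDR27 had 6 in introns 5 and 7 (0.540 to 0.976). AKAP8L, a nuclear protein related to the A-kinase anchors, had 4 in intron 9 (0.648 to 0.870).

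Last exons starting inside an intron hosted sites in 102 genes. CEP89 and PIGG had 7 such sites each, and AGAP3 and CENPV had 6 each. Last exons running on from the exon before hosted sites in 51 genes. The largest group of all, 15 sites in intron 3 of ZFTRAF1 (1588 nt), was of this kind and scored from 0.562 to 0.926. It lay in an intron that 2 annotated coding genes share, and 56 sites (6.36%) had more than 1 host gene in this way; they are counted among the 881 but not assigned to a gene below.

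The 825 sites with 1 host gene were spread over 385 genes, or 5.51% of the 6981 coding genes with an exonic or intronic DRACH site. Of these genes 205 (53.2%) had 1 intronic site, 144 had 2 to 4, and 36 (9.35%) had 5 or more and together held 243 sites (29.5%). Exonic DRACH sites were present in 289 of the 385 genes, with a median of 4, and 96 genes (24.9%) had intronic sites alone. In genes with exonic but no intronic sites the median was 3. Sites in another exon were found in 303 genes and sites in none in 101. Both classes were present in 19 genes, of the 180 with the 2 or more sites this needs.

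The gene with most intronic sites was RABL6, a Rab-like GTPase, with 13 in 3 introns and scores from 0.523 to 0.846. Its 6 sites in intron 5 lay in no other exon, at 34 to 1946 nt from the 5′ splice site, while the 6 in intron 7 lay in last exons of other coding transcripts. SPPL2B, an intramembrane protease of the signal peptide peptidase family, followed with 12 sites, 11 of them in intron 8. CCDC57, CSNK1D and LRRC61 had 11 each, CEP72 had 10 and ACIN1 had 8. AGAP3, C21orf58, CEP89, INTS11, MTA1, PIGG and WTAP had 7 each, and ANKRD11, a chromatin regulator with ankyrin repeats, had 6, as did 7 other genes. INTS11 is the endonuclease of the Integrator complex and MTA1 a subunit of the NuRD chromatin complex. Of these 15 genes CCDC57, CEP89 and PIGG had no exonic DRACH site.

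WTAP, the subunit of the methyltransferase complex named above, carried its 7 intronic sites within 541 nt of the 5′ splice site of intron 6, which is 5090 nt long. All 7 lay in the 3′ UTR of other coding WTAP transcripts that end in this intron. The scores at 28, 95, 101 and 176 nt were 0.680, 0.790, 0.839 and 0.568, and those at 515, 522 and 541 nt were 0.912, 0.979 and 0.95. The 3 sites farthest from the splice site therefore scored above the other 4. WTAP also had 8 DRACH sites in the exons of its longest coding transcript. The window of its highest-scoring site occurred at 2 places of hg38.

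CSNK1D, casein kinase 1 delta, carried its 11 sites in intron 3, which is 2184 nt long, and 10 of them were in the pentamer TGACT. Of those 10, 9 had exactly the same 21-nt window, the CSNK1D sequence shown above, at 537, 602, 986, 1018, 1050, 1114, 1380, 1412 and 1572 nt from the 5′ splice site. This window occurred 10 times in the intron and nowhere else in hg38, most often 32 nt apart. The sites thus lay on copies of a tandem repeat. Scores on identical windows ranged from 0.556 to 0.785. The tenth TGACT site, at 441 nt, differed in its last base (ggctcagcTGACTggcttctg, chr17:82254978-82254998) and scored 0.626. The remaining site, in GGACT, lay 7 nt from the 5′ splice site and scored 0.765. By the methods of the study, reads without a unique alignment were discarded; what this does to the values on identical copies was not tested.

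CEP72, a centrosomal protein, had the largest group of sites outside all other exons. Its 10 sites in intron 9 (3694 nt) fell into 4 sites between 37 and 333 nt from the 5′ splice site, scoring 0.70, 0.861, 0.705 and 0.926, and 6 sites between 1876 and 2968 nt, scoring from 0.524 to 0.809. CEP72 had 1 exonic DRACH site. C21orf58 had 7 sites in intron 1 (4418 nt), again in no other exon: the 4 sites within 248 nt of the 5′ splice site scored 0.729, 0.864, 0.559 and 0.762, and the 3 sites from 1060 to 1375 nt scored 0.594, 0.532 and 0.537. The site at 1375 nt had a window found at 12 places.

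ACIN1, a nuclear protein associated with the exon junction complex, carried all 8 sites in intron 9 (3467 nt) between 1025 and 1755 nt, with scores from 0.534 to 0.915. All 8 lay in an exon of a transcript tagged for nonsense-mediated decay. CEP89, a centriole protein, had 7 sites between 1778 and 2778 nt of its first intron, all in the last exon of another coding transcript, with scores from 0.684 to 0.881. The CEP89 window shown above occurred at 15 places of hg38 and that of another of its sites at 18. PIGG, which acts in the synthesis of GPI anchors, had 7 sites between 86 and 641 nt of intron 8, with scores from 0.518 to 0.925. The 11 sites of LRRC61 intron 2 lay in exons of ZBED10P, an overlapping pseudogene on the same strand, so the host intron and the exon belong to different genes there.

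**Figure D2:**
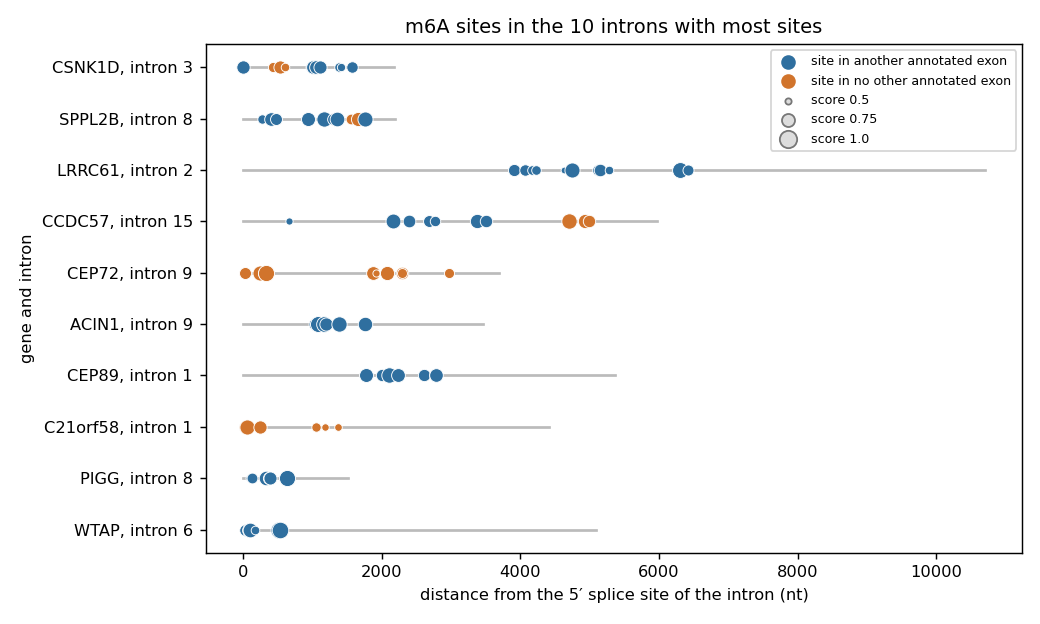
Position of each m6A site in the 10 introns with most sites assigned to 1 gene, as distance from the 5′ splice site in nt. Grey lines show the length of the intron, point area the prediction score and colour whether another annotated exon holds the site. CEP72 and C21orf58 have sites in no other exon alone, and the 7 sites of WTAP lie in the first 541 nt of 5090.

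In lists of RNA processing genes, 4 genes carried intronic sites. None of the 14 SR proteins and relatives did, although 11 had exonic DRACH sites, and none of the 27 hnRNP proteins (19 with exonic sites), 6 U1 snRNP proteins (4) or 10 nonsense-mediated decay factors (9). Among 7 SR protein kinases, CLK3 had 2 intronic sites (0.595 and 0.884) and CLK2 had 1 (0.579). Both kinases phosphorylate SR splicing factors, and the longest coding transcript of CLK3 in this annotation has 2 introns. WTAP was the sole carrier among 20 genes of the m6A machinery, and CPSF1, the largest subunit of the cleavage and polyadenylation specificity factor, among 20 cleavage factors, with 2 sites in intron 26 (0.656 and 0.522). YTHDC1, the nuclear m6A reader, had 0 intronic and 4 exonic DRACH sites. MIF4GD, which takes part in histone mRNA translation, had 0 intronic and 10 exonic ones. Counted over genes with an exonic or intronic DRACH site, this was 2 of 4 kinases, 1 of 17 genes of the m6A machinery and 1 of 13 cleavage factors, beside 5.51% of all coding genes with a site.

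Intronic sites lay towards the 5′ end of their introns. Each intron was cut into 5 parts of equal length, numbered from the 5′ splice site. Part 1 held 322 of 881 sites (36.5%, 33.4 to 39.8), and part 5 held 108 (12.3%, 10.3 to 14.6). All DRACH motifs of the same introns, weighted by the number of sites in each intron, had 20% and 19.5% in those parts. In both classes the share in part 1 was above that of motifs, less so for sites in no other exon. Of sites in another exon 38.9% (35.3 to 42.6) were in part 1, where annotated exons that run on from the 5′ splice site lie by construction. Of sites in no other exon 28.4% (22.6 to 35.1) were there, beside 20% of motifs. With 1 site per intron the share was 27.5%, and at scores of at least 0.7 it was 26.5%. Both come from fewer sites and have no interval here. The interval of the 28.4% treats neighbouring sites as independent, so the lean of this class remains uncertain. The 4 remaining parts held 14.7% to 22.8%, and their intervals included the share of motifs, except in part 3 (10.4 to 20.3 beside 20.6).

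**Figure D3:**
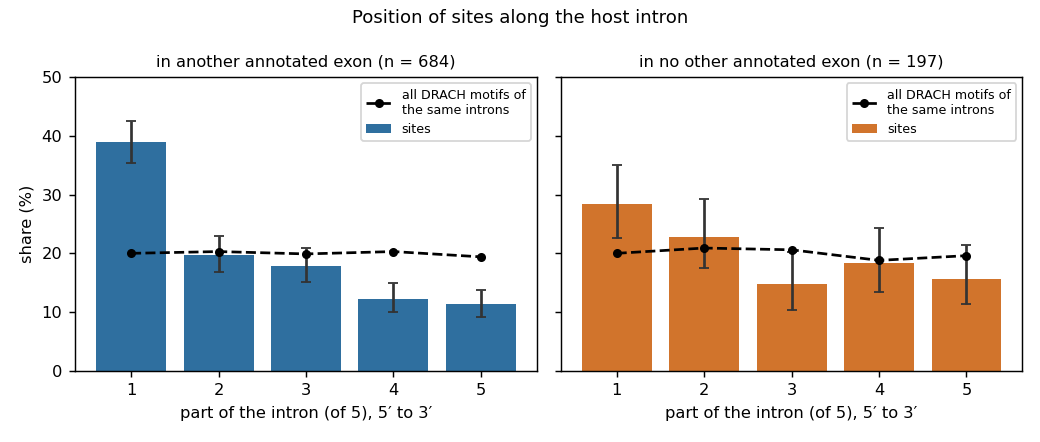
Share of sites (bars, %) in each of 5 equal parts of the host intron, numbered from the 5′ splice site, with 95% Wilson intervals, for sites in another annotated exon (left) and in none (right). Dashed points give the share of all DRACH motifs of the same introns. Part 1 holds 38.9% and 28.4% of the sites beside 20% of motifs.

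In nucleotides, the median intronic site lay 706 nt from the 5′ splice site (95% interval 641 to 790) and 1789 nt from the 3′ splice site (1478 to 2019). Within 500 nt of the 5′ splice site were 358 sites (40.6%, 37.4 to 43.9), beside 30.1% of motifs, and within 500 nt of the 3′ splice site 222 (25.2%, 22.4 to 28.2), beside 30.2%. For sites in no other exon the shares near the 5′ splice site were 43.7% (36.9 to 50.6) and 33.9%. For these sites the distance to annotated exons was also taken, with no share of motifs beside it. The exon before the host intron counts here too, so this distance in part repeats that from the 5′ splice site. The nearest annotated exon end upstream, of any transcript on the strand, was a median of 407 nt away (298 to 571), and 32 of the 197 sites (16.2%, 11.7 to 22.0) lay within 100 nt of it.

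Many sites had a close neighbour. Another intronic site of the same intron lay within 100 nt of 445 sites (50.5%, 47.2 to 53.8), with 50.3% and 51.3% in the 2 classes. No such share is given for exonic sites or for DRACH motifs, so it is not shown to be particular to intronic sites. By intron, 245 of 434 had 1 site, 151 had 2 to 4, and 38 (8.76%) had 5 or more and held 248 of the 881 sites.

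The host introns as a whole had a greater median length and GC content than introns at large. Their median length was 2260 nt (1892 to 2878), beside 1297 nt for the 69478 introns of coding genes with a HEK293T site. It was 2565 nt (2124 to 3273) with sites in another exon and 1768 nt (1286 to 2223) with sites in no other exon, and the latter interval includes the value of all introns. A longer intron offers more motifs, and the share that length gives was not measured. Median GC content was 59.1% (55.6 to 61.4) in introns with sites in no other exon and 53.1% (51.9 to 54.2) in introns with sites in another exon, beside 46.6% in all introns. First introns made up 24.2% of the host introns and last introns 25.1%, beside 9.75% for each among all introns. All introns were not matched to the hosts by the number of introns per transcript, and few introns raise both shares. An intron that is alone in its transcript counts as first and as last. Around the site itself (201 nt) the median GC content was 61.7% (60.7 to 62.7) in no other exon, 58.2% (57.2 to 59.2) in another exon and 57.2% for exonic sites.

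GGACT was the leading pentamer, with 266 of 881 sites (30.2%, 27.3 to 33.3). Its share was 29.7% (26.4 to 33.2) in another exon, 32.0% (25.9 to 38.8) in no other exon and 21.9% (21.5 to 22.4) in exons. GGACA had 12.4% (10.4 to 14.7) of intronic and 15% (14.6 to 15.4) of exonic sites, with intervals that just overlapped. GAACT (12.7% and 12.4%) and AGACT (10.9% and 11.1%) had shares whose intervals overlapped, and TGACT had 9.88% (8.08 to 12) and 7.84% (7.54 to 8.15), 10 of its 87 intronic sites being those of CSNK1D. GAACA had 1.93% (1.21 to 3.07) of intronic and 3.68% (3.47 to 3.90) of exonic sites, with separate intervals. GGACC had 8.17% (6.54 to 10.2) and 10.6% (10.2 to 10.9). The sequence around the A is an input of m6Aboost, so these shares are partly set by the prediction.

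Both classes of intronic sites had lower median scores than exonic sites, but the most frequent kind of exon did not. The median was 0.70 (0.689 to 0.720) in another exon, 0.678 (0.654 to 0.697) in no other exon and 0.730 (0.728 to 0.733) in exons, so the intervals of the intronic classes overlapped each other and stayed below that of exonic sites. A score of at least 0.7 was reached by 50.0%, 42.1% and 57.8% of these sites. Within GGACT alone the medians were 0.748 (0.709 to 0.778), 0.691 (0.645 to 0.761) and 0.798 (0.794 to 0.802), in the same order and again with overlap between the intronic classes. By kind of exon, last exons starting inside the intron stood highest, with a median of 0.752 (0.734 to 0.771), above that of exonic sites, and last exons running on had 0.707 (0.685 to 0.745). Exons covering the intron (0.663, 0.644 to 0.704) and first exons (0.656, 0.627 to 0.692) had medians whose intervals overlapped that of sites in no other exon. Overlap with a 3′ UTR, coding sequence or 5′ UTR of an annotated transcript is another input of m6Aboost, and the signal it uses is relative to other peaks of the transcript; their part in the difference was not tested.

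**Figure D4:**
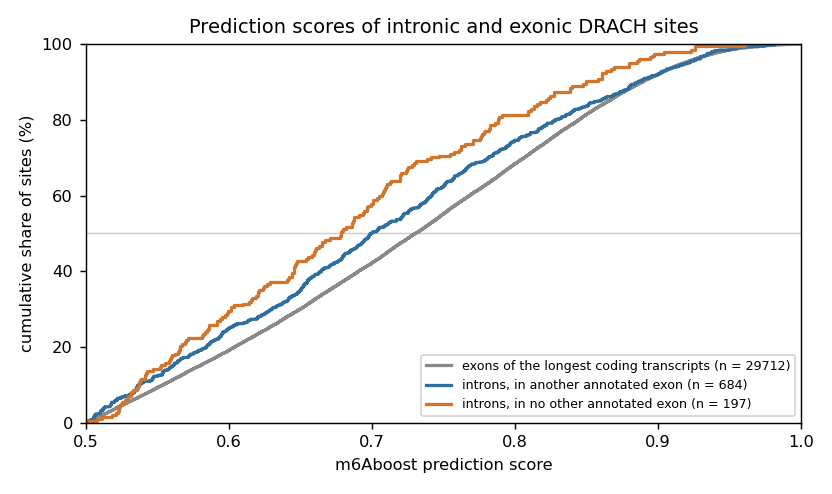
Cumulative share of sites (%) against the m6Aboost prediction score for DRACH sites in exons of the longest coding transcripts (grey), in introns and another annotated exon (blue) and in introns and no other exon (orange). The orange curve crosses 50% at 0.678, the blue at 0.70 and the grey at 0.730.

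Polyadenylation hexamers, the signal bound by the cleavage machinery, were then counted after each site. AATAAA or ATTAAA, searched on the strand of the site only, stood in the 500 nt after 171 of the 356 sites in last exons (48.0%, 42.9 to 53.2), beside 31.9% of DRACH motifs. For sites in exons that cover the intron the values were 20.6% (15 to 27.7) and 18.1%, and for sites in no other exon 20.3% (15.3 to 26.5) and 19.4%. Over all intronic sites they were 30.6% (27.7 to 33.8) and 26.2%. Of exonic sites 30.8% had a hexamer. The last exons are defined by annotated ends, so this difference is partly given by the choice of exon. With a window of 200 nt the values were 15.4% for sites in last exons and 15.3% for motifs.

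A minority of the sites had a window with exact copies in hg38, and diverged copies were not counted. Windows found at 2 or more places made up 9.65% (7.66 to 12.1) in another exon and 8.63% (5.46 to 13.4) in none. For exonic sites the share was 5.28% (5.03 to 5.54). A window found at 10 or more places of hg38 occurred for 31 of the 881 sites (3.52%, 2.49 to 4.95), and for 22 of 870 (2.53%, 1.68 to 3.8) without CSNK1D, beside 114 of 29712 exonic sites (0.384%, 0.320 to 0.461). No such share is given for DRACH motifs of the same introns. The difference from exonic sites is therefore not shown to be particular to predicted sites. The window with most copies, in TCTN1, occurred at 22261 places, and 1 of SPPL2B at 7580. The intervals of the classes overlapped, with 3.51% (2.37 to 5.17) in another exon and 3.55% (1.73 to 7.15) in none.

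In mESC the same rule gave 453 intronic sites, 1.92% of 23643 DRACH sites, in 252 genes. Of them 341 (75.3%, 71.1 to 79.0) lay in another annotated exon and 112 in none. In part 1 of the intron lay 43.0%, with no share of motifs beside it. The paper counts more mESC sites in introns and describes their accumulation towards 5′ splice sites. The introns it counted need not be those of the rule used here. Human and mouse annotation differ in the number of transcripts, so the shares are given side by side only. MIF4GD had 1 intronic site in mESC, in intron 4, and YTHDC1 had 0. The study named a retained intron in each of these genes in mESC. The counts here follow the longest transcript of the annotation used, in which such a site can count as exonic or an intron have another number. A count of 0 therefore does not show that the retained intron lacks m6A.

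By gene symbol, 35 genes had intronic sites in both lists, which is 9.09% of the 385 HEK293T genes and 13.9% of the 252 mESC genes; 334 of the HEK293T symbols are also those of a mouse coding gene. In 26 of the 35 genes a site lay in the intron of the same number, counted from either end of the longest transcript. Counting from either end makes a match easier, as do few introns (3 in ARGLU1 and SYNGR1). Neither count has a background beside it, such as the share over all genes with sites in both lists. ACIN1 had 8 human and 5 mouse sites, all in intron 9 of 18. CCNL2, cyclin L2, had 6 and 5, all in intron 5 of 10, and NECTIN2, a cell adhesion protein, 5 and 6 in intron 5 of 8. DDX5 had 6 in intron 12 of 13 and 4 in intron 11 of 12, the next to last in either species. AKAP8L had 4 and 4 in intron 9 of 13. These genes were taken after their values were seen, as were those below.

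**Figure D5:**
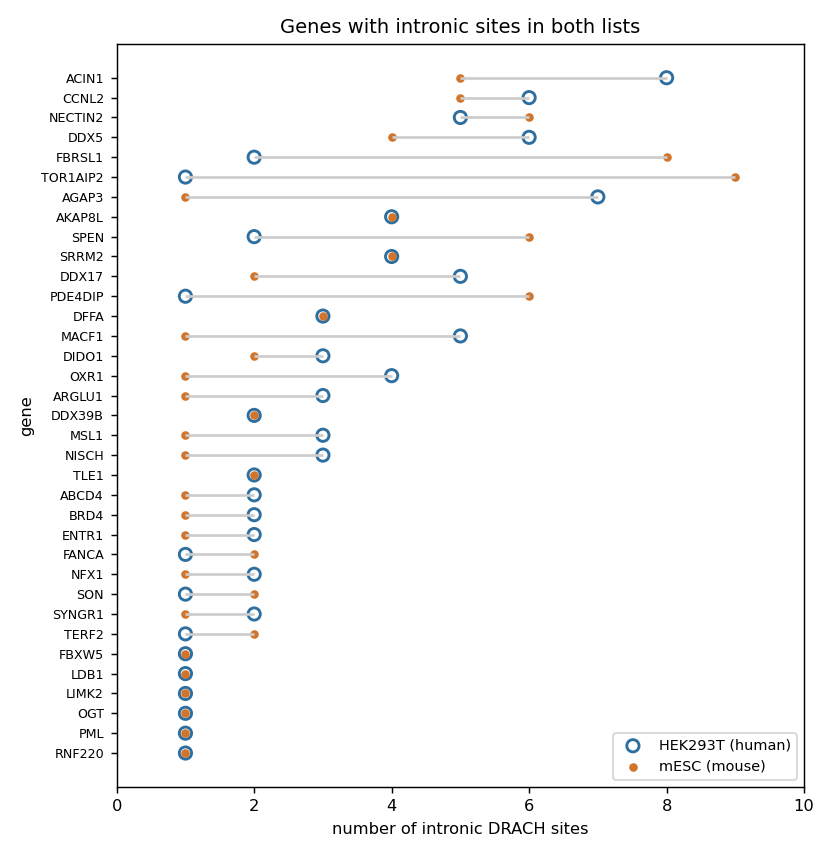
Number of intronic DRACH sites in the HEK293T (open blue circles) and mESC (orange points) lists for the 35 genes with intronic sites in both, ordered by their sum. ACIN1 has 8 and 5, and AKAP8L, SRRM2, DFFA, DDX39B and TLE1 have equal numbers above 1.

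Of the 98 human sites in these 35 genes, 13 in 10 genes had a mouse site whose 21-nt window shared at least 17 bases in the same register, and 5 pairs were identical. No such count is given for exonic sites or for DRACH motifs of the same introns. The pairs are therefore not shown to be particular to intronic sites. The identical windows are printed once, since human (hg38) and mouse (GRCm38) share all 21 bases, to show where the same sequence carried a site in both species.
AKAP8L intron 9, human chr19:15398721-15398741, mouse chr17:32334000-32334020: tccgcctcAGACTcttgctct
AKAP8L intron 9, human chr19:15398949-15398969, mouse chr17:32334229-32334249: ctcatcagAGACTcaaggtcc
DDX17 intron 11, human chr22:38489372-38489392, mouse chr15:79533124-79533144: gtgtgtggGGACTtctcactg
PDE4DIP intron 17 (mouse 24), human chr1:148981395-148981415, mouse chr3:97741300-97741320: gaggtgggGAACTggaaagtg
SON intron 4, human chr21:33557553-33557573, mouse chr16:91662499-91662519: agccaaacTGACTgaggagtg

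Identical windows give the classifier the same sequence input in both species, and it was trained on mESC data. Calls and similar scores in both lists are therefore partly set by the prediction and are not independent. The DDX17 site scored 0.95 in both lists and lay 2674 nt from the 5′ splice site in human and 2823 nt in mouse. The SON site, in a gene for a nuclear speckle splicing factor, scored 0.760 in both and lay 247 and 248 nt from it. The PDE4DIP site lay 8 nt from the 5′ splice site in both species, so its window spans the exon boundary, and scored 0.826 and 0.790. The AKAP8L sites scored 0.870 and 0.769 in HEK293T and 0.561 and 0.733 in mESC, at 571 and 343 nt in human and 578 and 349 nt in mouse. All these human windows lay in another annotated exon, those of AKAP8L and DDX17 in exons that cover the intron.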

How the data were processed

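Sites were analysed as deposited by the authors, who aligned miCLIP2 reads with STAR, found peaks in each replicate with PureCLIP, dropped those seen in only 1 replicate and gave each remaining A a prediction score with m6Aboost. Scores of 4 HEK293T replicates are pooled in 1 list on hg38, and the mESC list is on GRCm38. Every listed position is an A on its strand in the reference used. Introns and exons came from GENCODE release 44 (mouse M21), not the release of the authors; the longest coding transcript has the largest summed exon length, over 19702 human coding genes. Other exons are same-strand exons of any transcript. Shares have 95% Wilson intervals and medians binomial intervals. The members, gene lists and rules were chosen with earlier results of these data known. Named genes were the 15 genes and 10 introns with most sites of 1 gene, and 5 of the highest scores of each class. For sites in another exon these 5 leave out WDR27. Carriers from 7 gene lists, YTHDC1 and MIF4GD were named too. Ties went by name, or by position for introns. Windows were read with samtools 1.23.1 and pysam 0.24.0, and the rule was tested on simulated data. The other deposited files were not used here.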

Additional observations from a re-analysis of the deposited data

How the results depend on the processing

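Of 88 recomputed values, 71 stayed within the counting interval of the reported value or within 1.5 times a reported count. The share in another exon was 82.0% with the longest coding sequence as reference, 80.5% at scores of at least 0.7, 47.2% with exons of basic transcripts and 67.3% with exons of support level at most 3. Basic exons also put the median score in another exon at 0.727. Scores of at least 0.7 left 425 sites in 216 genes, with class medians of 0.803 and 0.786 and GGACT at 35.3%. That pentamer was 34.4% of RRACH sites and 27.2% over all motifs. A hexamer followed 9.99% of sites within 200 nt, 50.2% within 1000 nt and 23% as AATAAA only. In mESC a score of at least 0.7 left 222 sites and 20 genes in both lists. Leaving out windows found at 10 or more places, chosen after seeing the data, left 850 sites and moved no value beyond these limits. No replicate could be left out, because the list pools them. No paired analysis was possible because the result comes from no test. The depth at each site is unknown, so a site missing from a list is not shown to be unmethylated.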
